A study of Mus musculus with 8 samples.

Results

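The genes described here are 36 markers of T and natural killer (NK) lymphocytes, listed by gene name out of 35419 genes with a symbol in N2A neuroblastoma tumors. They were chosen by name and role, with earlier results of these data known. They comprise 7 chains of the T cell receptor complex, 8 co-receptors and signalling proteins, 5 regulatory T cell (Treg) genes, 4 inhibitory receptors, 5 cytotoxic granule genes, 4 NK receptors and 3 effector genes. Each tumor grew under the skin of an A/J mouse, female and 4 weeks old at purchase, after injection of 1000000 cells of the mouse neuroblastoma line Neuro-2a (N2A). From the time a mass could be felt, mice were injected intraperitoneally 2 times a day, for 8 days, with SR59230A at 10 mg/kg, an antagonist of the β3-adrenergic receptor (4 tumors, numbered 1 to 4), or with physiological solution as vehicle (4 tumors, numbered 0 to 3). All tumors came from the same cell line in mice with their own immune system, and whole tumors were homogenised, so tumor cells and every infiltrating cell contributed RNA. Nothing in the labels says that the 4 tumors of a group came from separate litters or days, and p-values measure only the spread between these tumors.

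T lymphocytes recognise antigen through a receptor of an alpha and a beta chain, which signals inside the cell through the CD3 and zeta chains. The co-receptors CD4 and CD8 bind MHC molecules and bring the kinase Lck to this complex, where it starts a cascade through Zap70 and the adaptor Lat. Treg cells, which carry Foxp3 and a high-affinity interleukin-2 receptor, restrain other T cells, whereas cytotoxic T cells and NK cells kill targets with perforin and granzymes and secrete interferon gamma. In tumors, receptors such as PD-1, Lag3, Tim-3 (Havcr2) and Tigit dampen these responses.

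Sequences were relevant to how reads could be told apart in 2 cases. The first is the beta chain, whose constant region is encoded by a pair of near-identical genes in tandem, Trbc1 (GRCm38 chr6:41538218-41539881, plus strand) and Trbc2 (chr6:41546730-41548352, plus strand). Over the first 521 bases of the transcript models, up to the first stop codon in the open frame, 23 bases differed (95.6% identity), and the first difference stood at base 260. Of the 617 windows of 76 bases, the read length, along the Trbc2 model, 231 (37.4%) were also found in Trbc1. A read in such a window can be placed only if its mate covers a difference, so the split between these genes is uncertain. Bases 381 to 510 of both models, printed 5′ to 3′ from the GENCODE transcripts, held 20 of the differences, which are in capitals.
Trbc1: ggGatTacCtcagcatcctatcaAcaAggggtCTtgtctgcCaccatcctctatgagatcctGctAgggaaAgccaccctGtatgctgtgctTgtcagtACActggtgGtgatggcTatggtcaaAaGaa
Trbc2: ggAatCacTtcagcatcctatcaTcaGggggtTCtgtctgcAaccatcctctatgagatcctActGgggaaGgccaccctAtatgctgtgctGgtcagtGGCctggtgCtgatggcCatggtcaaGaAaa

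The second case is Lck (GRCm38 chr4:129548344-129573641, minus strand), which held more reads than any other member and has a distal and a proximal start site 15269 bases apart. RefSeq windows (GRCm38.p6) of 250 bases before to 50 bases after each start are printed because the reads were divided between transcript models of both starts. Capitals mark the 50 bases from the start onwards.
Lck distal start, chr4:129573592-129573891, minus strand: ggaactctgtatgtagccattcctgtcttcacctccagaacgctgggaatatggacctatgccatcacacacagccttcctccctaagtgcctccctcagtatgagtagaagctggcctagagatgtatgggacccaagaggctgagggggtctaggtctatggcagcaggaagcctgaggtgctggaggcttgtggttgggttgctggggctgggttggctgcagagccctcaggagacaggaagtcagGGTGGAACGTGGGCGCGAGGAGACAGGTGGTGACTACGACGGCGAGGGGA
Lck proximal start, chr4:129558323-129558622, minus strand: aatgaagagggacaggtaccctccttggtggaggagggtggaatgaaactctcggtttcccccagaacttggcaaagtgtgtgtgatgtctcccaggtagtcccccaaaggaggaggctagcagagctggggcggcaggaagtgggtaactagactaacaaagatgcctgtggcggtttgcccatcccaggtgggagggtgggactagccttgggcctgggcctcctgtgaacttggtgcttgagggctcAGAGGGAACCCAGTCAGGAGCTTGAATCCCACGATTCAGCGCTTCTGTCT

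Short motifs were searched on both strands of these windows. The letters TGTGGT, which Runx factors bind, were found once in the distal window and not in the proximal window. The GC box letters GGGCGG were found once in the proximal window and not in the distal one. The TATA box letters TATAAA had no match in either window. Nor did the E-box letters CACGTG. The half-site of the cAMP response element, TGACG, had no match there either. Over 32851 RefSeq windows of the same length, 16.8% held the Runx letters, 35.7% the GC box, 13.6% the TATA box, 7.15% the E-box and 20.8% the half-site. The table held 31 windows of 26 members, and the Runx letters were found in 13 of them (41.9%), the GC box in 4, the TATA box in 3, the E-box in 2 and the half-site in 5.

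Across the series, the estimated reads summed to 23484190 to 43675495 per SR59230A tumor and to 28614914 to 44045575 per vehicle tumor. Several libraries stood apart. Skeletal muscle transcripts (9 genes) summed to 2305 CPM (reads scaled to a common library total) in SR59230A tumor 1 and 199 CPM in SR59230A tumor 2, against 9.21 to 27.6 CPM in the other 6 tumors. The satellite-like model Gm10800 took 3.44% of reads in SR59230A tumor 4, 6.38% in vehicle tumor 0 and 4.70% in vehicle tumor 3, and at most 0.373% elsewhere. Neuroblast genes (12 genes) summed to 2269 to 3595 CPM in SR59230A tumors and 3133 to 4661 CPM in vehicle tumors. Macrophage genes (12 genes) summed to 400 to 597 CPM in SR59230A tumors and 273 to 604 CPM in vehicle tumors, and their defining marker Adgre1 averaged 10.1 ± 4.01 CPM with SR59230A and 8.13 ± 1.60 CPM with vehicle (SD, n = 4 each). B and plasma cell genes (9 genes) summed to 7.42 to 10.9 CPM with SR59230A and 6.76 to 15.8 CPM with vehicle. Neutrophil genes (8 genes) summed to 47.9 to 112 CPM with SR59230A and 52.7 to 74.4 CPM with vehicle, with the defining marker Ly6g at 0 to 4 reads and 0 to 3 reads, and dendritic cell genes (8 genes) to 25.1 to 31.6 CPM and 28.1 to 36.7 CPM. Ptprc, the CD45 antigen of all leukocytes, was at 6.01 to 10.96 CPM with SR59230A and 7.73 to 19.1 CPM with vehicle.

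Against this background, T and NK genes were close to the limit of detection. All 36 members together had 2106 reads in the 4 SR59230A tumors and 2622 reads in the 4 vehicle tumors, which was 15.7 to 16.6 CPM of the unscaled total with SR59230A and 14.9 to 24.6 CPM with vehicle. Lck alone contributed 42.7% of these reads. A floor of 3 reads corresponded to 0.0615 to 0.146 CPM per tumor, and 19 members had 0 reads in at least 1 tumor. These limits cover counting error only.

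Levels were set against each other per transcript length, in TPM (abundance scaled for effective length and library). Lck was the highest member at a mean of 7.49 TPM over the 8 tumors (5.59 to 9.54), followed by Trac at 1.85 TPM (1.02 to 3.56) and Tigit at 1.74 TPM (0.703 to 3.04). The ranges of Trac and Tigit overlapped, and no other member reached a mean of 1 TPM. At the other end, 15 members had a mean under 0.1 TPM, among them Cd3e at 0.0589 TPM, Cd247 at 0.0660 TPM and Gzmk at 0.00537 TPM. The list is therefore not uniform. Cd3e, a defining chain of every T cell, was 26.9 to 499 times lower than Lck on the TPM scale in the 7 tumors where it had a read, and the cells in which Lck was transcribed cannot be read from bulk RNA. Both levels include retained-intron models. The model Cd3e-202 alone held 40% of the Cd3e reads, against 14.7% of the Lck reads on all such models of Lck.

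Only 11 members had enough reads for the test across all genes (about 10 reads in at least 4 tumors). None was a differentially expressed gene (DEG, adjusted p under 0.05 and absolute log2 fold change of at least 0.5) by edgeR's quasi-likelihood test, and 0% of the 15193 genes tested were. DESeq2 called 17 genes (0.112%), none of them a member. None of the 11 members had an unadjusted p under 0.05 by either tool, against 704 of all genes (4.63%) by edgeR. Under single alternatives Trac, Cd4, Lag3, Il2ra, Cd3d or Eomes had an unadjusted p under 0.05, and none was a DEG. The share of all genes with such a p was 4.12% without a filter on low counts. It was not counted for the other alternatives that gave these members, so they cannot be set against it. Of the 11 members, 10 had a log2 fold change below 0 and Cd8b1 one above 0, against 50.4% of all genes below 0. Their median log2 fold change was -0.24, beside a median of -0.00 over all genes. This median was 0.29 when the 3 satellite-rich libraries were left out. It was -0.12 within tumors 1 and 2 of each group, which also hold none of those libraries, and -0.39 within the other 4 tumors. The sign of the median thus varied with the tumors kept. In bulk tumors, fewer cells of a type and less RNA per cell cannot be told apart.

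**Figure D1:**
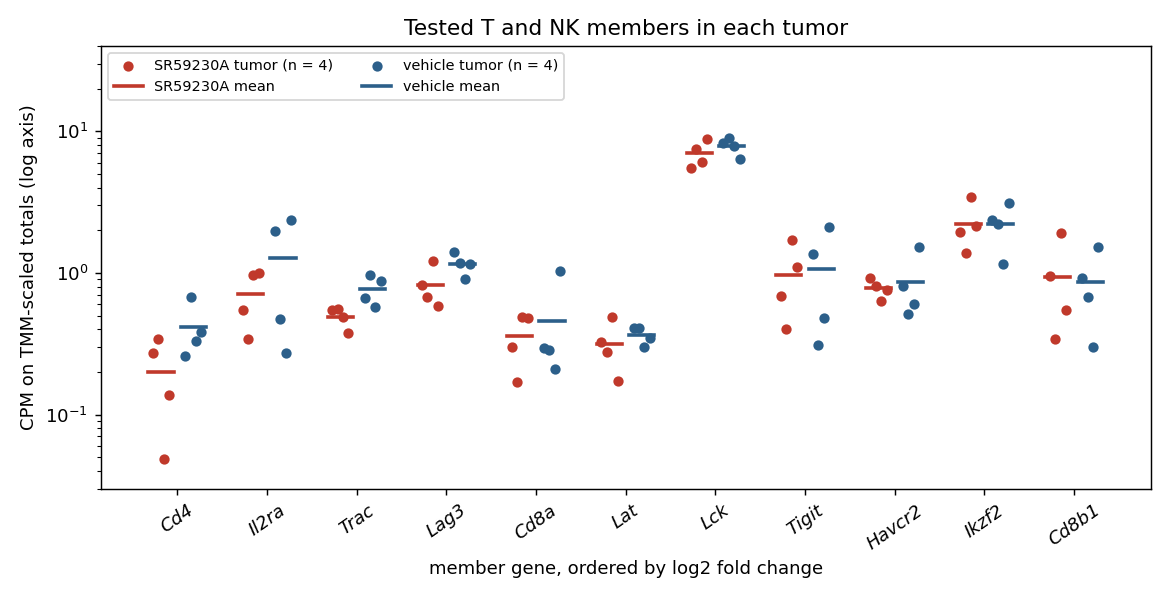
CPM of the 11 tested members on a log axis, with each of the 4 SR59230A tumors (red, left) and 4 vehicle tumors (blue, right) as a point and the group mean as a line. Trac is the only gene whose groups do not overlap, and Lck lies above every other member.

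Among the receptor chains, Trac, the constant region of the alpha chain (GRCm38 chr14:54220521-54224206, plus strand), was the best measured. It had 20, 26, 10 and 11 reads in SR59230A tumors 1 to 4, against 18, 47, 19 and 23 reads in vehicle tumors 0 to 3. On the scaled totals these were 0.546, 0.552, 0.487 and 0.378 CPM with SR59230A, against 0.663, 0.963, 0.573 and 0.881 CPM with vehicle. Every SR59230A tumor lay below every vehicle tumor, as for 1.28% of all tested genes. Trac was the only 1 of the 11 tested members with such a gap, and none had every SR59230A tumor above every vehicle tumor, against 1.33% of all tested genes.
Trac averaged 0.491 ± 0.0807 CPM with SR59230A and 0.770 ± 0.182 CPM with vehicle (SD, n = 4 each), a log2 fold change of -0.64 (SE 0.31, edgeR adjusted p = 0.996). The exact two-sided permutation test over 70 assignments gave p = 0.0286, the smallest that 4 tumors against 4 allow, and an adjusted p of 1 over all genes. The groups were separated by 0.0215 CPM, less than the worth of 1 read (0.711 reads of vehicle tumor 2). In TPM they overlapped, with 1.81 in the highest SR59230A tumor and 1.75 in the lowest vehicle tumor.
Set against Ptprc within the same library, there were 5.54, 5.04, 5.49 and 6.29 Trac reads per 100 Ptprc reads in SR59230A tumors 1 to 4, and 8.56, 10.3, 7.09 and 4.62 in vehicle tumors 0 to 3. On this ratio vehicle tumor 3 was the lowest of the 8 tumors and the groups overlapped. With Cd3d, Cd3e, Cd3g and Cd247 added to Trac, the ratio was 8.37, 6.20, 9.33 and 10.9 in SR59230A tumors 1 to 4. It was 21.8, 14.5, 10.1 and 13.3 in vehicle tumors 0 to 3, and only vehicle tumor 2 was within the SR59230A range.

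The CD3 and zeta chains, which carry the signal of the receptor into the cell, were too sparse for the main test. Cd3d had 4.2, 3, 5 and 6 reads in SR59230A tumors 1 to 4, against 19.9, 9, 4 and 23 reads in vehicle tumors 0 to 3. Vehicle tumors 0 and 3, which with SR59230A tumor 4 were the satellite-rich libraries, held most of these reads. In CPM, vehicle tumors 1 and 2, at 0.184 and 0.121, were within the SR59230A range of 0.0637 to 0.243. Without the filter on low counts, Cd3d had a log2 fold change of -1.62 (SE 0.72, edgeR adjusted p = 0.766).
Cd3e had 0, 1, 1 and 1 reads with SR59230A and 2, 3, 1 and 6 with vehicle. Over the 8 tumors, 40% of the Cd3e reads lay on the retained-intron model Cd3e-202 and 9.37% on Cd3e-203, another such model. Cd3e-202 held the only read of SR59230A tumor 3 and of SR59230A tumor 4, and 3 of the 6 in vehicle tumor 3. Cd3g had 3, 2, 0 and 0 reads with SR59230A and 1, 4, 2 and 9 with vehicle, of which 7 of the 9 in vehicle tumor 3 lay on a retained-intron model. Cd247, the zeta chain, had 3, 0, 1 and 1 reads with SR59230A and 5, 3, 1 and 5 with vehicle. These 4 genes together summed to 31 reads in the SR59230A tumors and 98 reads in the vehicle tumors. In CPM the sum was 0.127 to 0.341 with SR59230A and 0.241 to 1.65 with vehicle, with vehicle tumors 0 and 3 at the top.
The beta chain genes did not move together, within the uncertainty of their split. Trbc1 had 5.1, 5, 0 and 0 reads with SR59230A and 0, 1.2, 0 and 3 with vehicle, and Trbc2 had 3.9, 2, 2 and 1 reads with SR59230A and 2, 4.8, 2 and 6 with vehicle. Reads on the 129 variable segments of the T cell receptor genes, which were counted after the other values had been seen, summed to 24 in the SR59230A tumors and 45 in the vehicle tumors. By tumor these were 9, 8, 1 and 6 reads in SR59230A tumors 1 to 4, against 9, 9, 9 and 18 in vehicle tumors 0 to 3. In CPM the groups overlapped, at 0.0487 to 0.246 with SR59230A and 0.184 to 0.689 with vehicle.

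**Figure D2:**
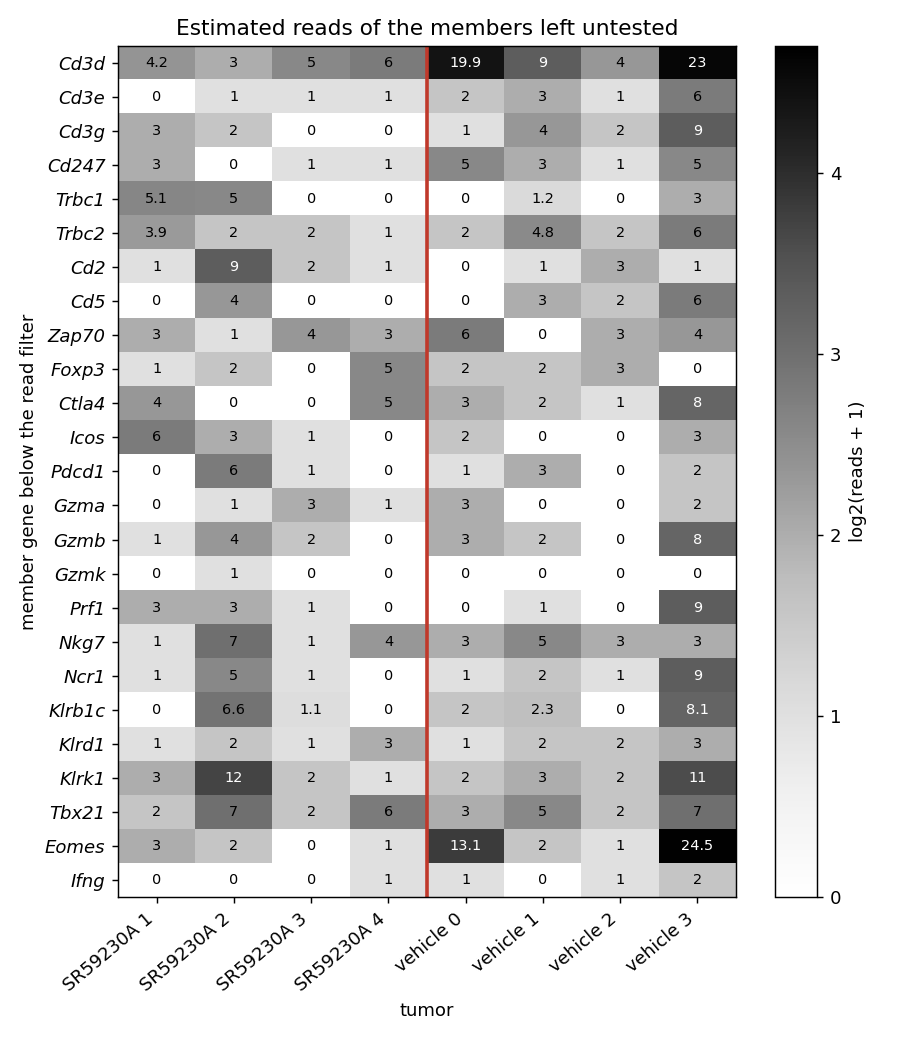
Estimated reads of the 25 members below the read filter in each tumor (columns, SR59230A tumors left of the red line), with darker shading for more reads on a log2 scale. Most cells hold 0 to 5 reads, and the darkest are Cd3d and Eomes in vehicle tumors 0 and 3.

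Cd4, the co-receptor of helper T cells and Treg cells, which macrophages may also carry, had the largest fold change among tested members. It had 10, 16, 1 and 4 reads in SR59230A tumors 1 to 4, against 7, 33, 11 and 10 reads in vehicle tumors 0 to 3. SR59230A tumors 3 and 4 were below all vehicle tumors, and SR59230A tumors 1 and 2 were within the vehicle range. The mean was 0.200 ± 0.131 CPM with SR59230A and 0.412 ± 0.183 CPM with vehicle (SD, n = 4 each), a log2 fold change of -0.97 (SE 0.54, edgeR adjusted p = 0.996). It was -2.06 without the 2 muscle-rich tumors and -0.61 without vehicle tumor 1, and Cd4 had too few reads for the test when only coding models were counted or only the 4 tumors other than tumors 1 and 2 of each group were used.
Cd8a and Cd8b1, the chains of the co-receptor of cytotoxic T cells, had fold changes of opposite sign, each smaller than its SE. Over single tumors they shared their highest and lowest tumors only. In CPM, vehicle tumor 3 and SR59230A tumor 3 were the highest for both chains, and SR59230A tumor 2 and vehicle tumor 2 the lowest. For Cd8a, SR59230A tumor 4 at 0.481 CPM was close to SR59230A tumor 3 at 0.487 CPM. For Cd8b1 these tumors were at 0.550 and 1.90 CPM. Cd8a had 11, 8, 10 and 14 reads with SR59230A, against 8, 14, 7 and 27 reads with vehicle. Its log2 fold change was -0.35 (SE 0.60, edgeR adjusted p = 0.996), and 0.40 without vehicle tumor 3, which held most of its vehicle CPM. Cd8b1 had 35.2, 16.4, 38.6 and 15.5 reads with SR59230A and 24.9, 33.5, 9.8 and 39.7 with vehicle. SR59230A tumor 3, the shallowest library, was highest at 1.90 CPM, followed by vehicle tumor 3 at 1.53 CPM, and the log2 fold change was 0.11 (SE 0.61, edgeR adjusted p = 0.996), turning to -0.48 without SR59230A tumor 3.

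Lck, the kinase that phosphorylates the CD3 chains, had 200.2, 353.5, 124.8 and 257 reads in SR59230A tumors 1 to 4, against 223.2, 436.1, 258.7 and 166 reads in vehicle tumors 0 to 3. In CPM these were 5.46, 7.52, 6.08 and 8.83 with SR59230A and 8.21, 8.94, 7.82 and 6.36 with vehicle. The groups overlapped, and vehicle tumor 3 was the lowest vehicle tumor for Lck. The log2 fold change was -0.17 (SE 0.20, edgeR adjusted p = 0.996).
The reads of Lck fell mainly on Lck-208, the model of the proximal start printed above, with 162.4, 308, 105.9 and 206.2 reads in SR59230A tumors 1 to 4 and 156.7, 397.5, 244.7 and 0 in vehicle tumors 0 to 3. Lck-202, the model of the distal start, was given 0 reads in every SR59230A tumor and 23.7, 0, 0 and 105.3 in vehicle tumors 0 to 3. Vehicle tumor 3 was thus the only tumor in which the distal model held most of the reads. These models share most of their length. Of 1999 windows of 76 bases along Lck-208, 1921 (96.1%) were also in Lck-201 and 1910 (95.5%) in Lck-202. Only 124 of the 2036 windows of Lck-202 were in neither of the other models, so the split is an estimate from few distinct reads, and it does not alter the gene's sum. Retained-intron models held a further 14.7% of the Lck reads over the 8 tumors.

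**Figure D3:**
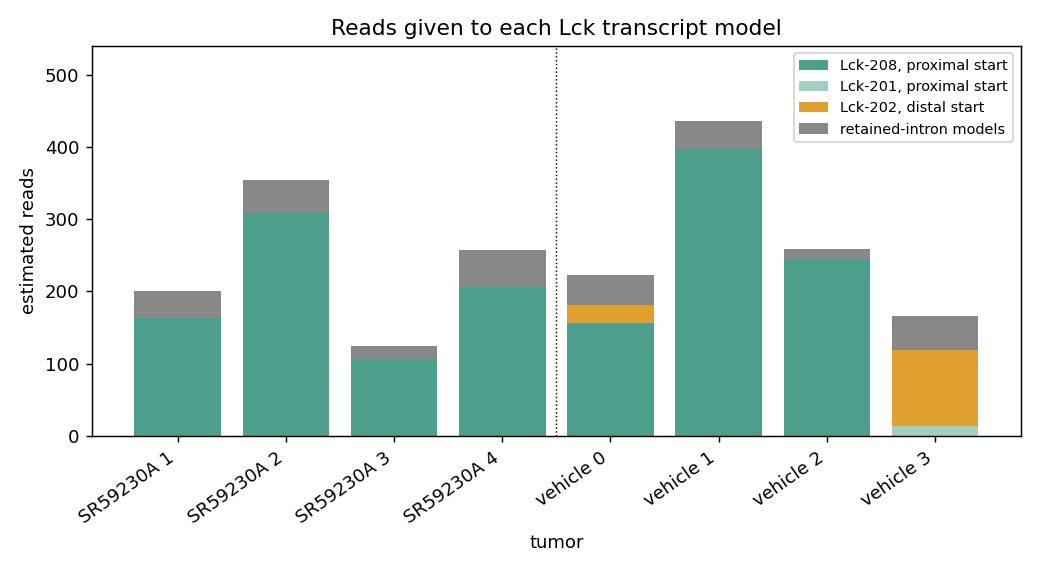
Estimated reads of Lck in each tumor (bars, SR59230A tumors on the left), stacked by transcript model. Lck-208 makes up most of every bar except that of vehicle tumor 3, where the distal-start model holds 105.3 of 166 reads.

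Lat, the adaptor that links the receptor to downstream pathways, had 12, 13, 10 and 5 reads with SR59230A and 11, 20, 10 and 9 with vehicle, with overlapping groups and a log2 fold change of -0.24 (SE 0.39, edgeR adjusted p = 0.996). Zap70, the kinase recruited to the CD3 and zeta chains, had 0 to 6 reads per tumor, and a retained-intron model held 68.1% of them. Cd2, an adhesion receptor of T and NK cells, had 1, 9, 2 and 1 reads with SR59230A and 0, 1, 3 and 1 with vehicle, so that SR59230A tumor 2 stood alone. Cd5, a negative regulator of receptor signalling, had reads in SR59230A tumor 2 (4 reads), against 3, 2 and 6 reads in vehicle tumors 1 to 3, and 0 in the other tumors.

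Of the Treg genes, Il2ra and Ikzf2 could be tested. Il2ra, the alpha chain of the interleukin-2 receptor, had 20.2, 15.9, 19.9 and 29.5 reads with SR59230A, against 54.3, 22.6, 8.5 and 62 reads with vehicle. Vehicle tumors 0 and 3 were the highest at 1.99 and 2.37 CPM, whereas vehicle tumor 2 was the lowest of all 8 tumors at 0.272 CPM. The log2 fold change was -0.84 (SE 0.69, edgeR adjusted p = 0.996), and 0.69 without the 3 satellite-rich libraries, which include both of those high tumors.
Ikzf2 (Helios), a transcription factor of Treg cells that is also made elsewhere, had 70.9, 65, 70 and 62 reads with SR59230A and 64.1, 108.5, 38 and 81 with vehicle. It averaged 2.21 ± 0.857 CPM with SR59230A and 2.20 ± 0.806 CPM with vehicle (SD, n = 4 each). Its log2 fold change was -0.00 (SE 0.37), and at that SE the groups are not shown to be alike. Foxp3, the defining factor of Treg cells, had 1, 2, 0 and 5 reads with SR59230A and 2, 2, 3 and 0 with vehicle. Ctla4, an inhibitory receptor, had 4, 0, 0 and 5 reads with SR59230A and 3, 2, 1 and 8 with vehicle, and Icos, a costimulatory receptor, had 6, 3, 1 and 0 with SR59230A and 2, 0, 0 and 3 with vehicle. No difference was detectable for these 3 genes at this depth, and Foxp3 did not follow Il2ra in vehicle tumor 3, where it had 0 reads.

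Among inhibitory receptors, Lag3, which binds MHC class II molecules, had 30.4, 31.9, 25 and 17.2 reads with SR59230A and 38, 57, 30 and 29.7 reads with vehicle. Its mean was 0.825 ± 0.278 CPM with SR59230A and 1.16 ± 0.202 CPM with vehicle (SD, n = 4 each). SR59230A tumor 3, at 1.22 CPM, was above 3 of the 4 vehicle tumors, and the other SR59230A tumors were below all of them. The log2 fold change was -0.50 (SE 0.32, edgeR adjusted p = 0.996) and stayed between -0.73 and -0.37 when each tumor was left out in turn.
Havcr2 had 34, 38, 13 and 22 reads with SR59230A and 22, 25, 20 and 40 with vehicle, at a log2 fold change of -0.12 (SE 0.39, edgeR adjusted p = 0.996). Tigit, a receptor of T and NK cells for nectin family ligands, had 24.6, 18.6, 35 and 31.5 reads with SR59230A and 36.7, 14.9, 16 and 55.5 with vehicle, at a log2 fold change of -0.14 (SE 0.65, edgeR adjusted p = 0.996). Without vehicle tumor 3 the fold changes of Havcr2 and Tigit were 0.30 and 0.43. Pdcd1, the gene of PD-1, had 0, 6, 1 and 0 reads with SR59230A and 1, 3, 0 and 2 with vehicle, so its level could not be compared between groups.
The tumors highest in Tigit were also those highest in another set of transcripts. Vehicle tumor 3, SR59230A tumor 3 and vehicle tumor 0 had the highest Tigit levels at 2.11, 1.70 and 1.36 CPM, and the same 3 tumors had the highest summed levels of olfactory receptor transcripts at 4196, 3668 and 2233 CPM. These genes are known from sensory neurons of the nose. The match was not particular to Tigit, since Ikzf2 was highest in the same 3 tumors at 3.10, 3.41 and 2.36 CPM. The part of the olfactory receptor transcripts in these results was not tested.

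**Figure D4:**
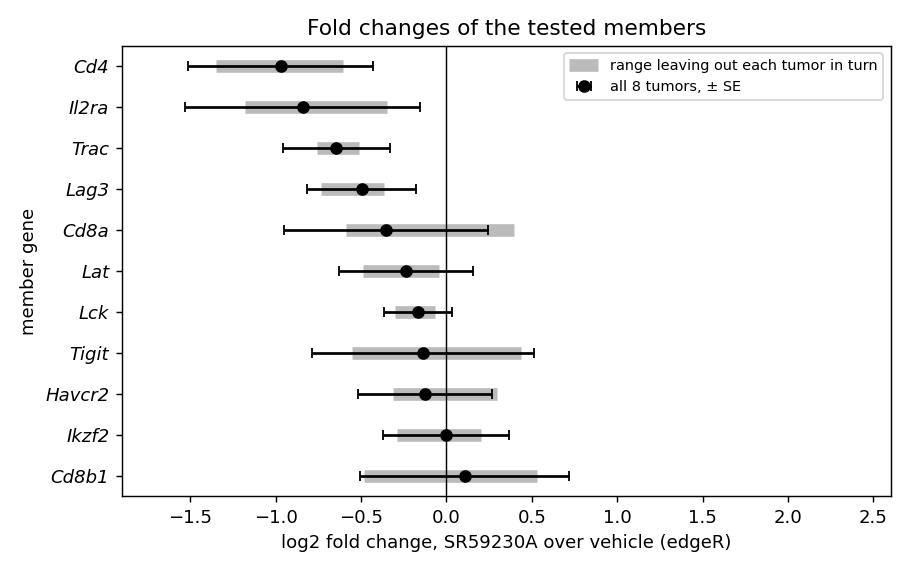
Log2 fold change of each tested member (SR59230A over vehicle, edgeR) with its standard error as a bar and, in grey, the range when each of the 8 tumors was left out in turn. The grey range of Trac, Cd4, Il2ra, Lag3, Lat and Lck lies below 0, whereas that of the other 5 members crosses 0.

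None of the 12 cytotoxic, NK and effector genes passed the filter. Gzma had 0, 1, 3 and 1 reads with SR59230A and 3, 0, 0 and 2 with vehicle, and Gzmb had 1, 4, 2 and 0 with SR59230A and 3, 2, 0 and 8 with vehicle. Both encode granzymes, the proteases of cytotoxic granules. Gzmk, another granzyme, had 1 read in all 8 tumors, in SR59230A tumor 2.
Prf1 (perforin, which opens the target membrane) had 3, 3, 1 and 0 reads with SR59230A and 0, 1, 0 and 9 with vehicle. Nkg7, a granule membrane protein, had 1, 7, 1 and 4 reads with SR59230A and 3, 5, 3 and 3 with vehicle. The 5 granule genes summed to 33 reads in the SR59230A tumors and 42 in the vehicle tumors, of which 22 came from vehicle tumor 3. Ifng, the cytokine interferon gamma, had 0, 0, 0 and 1 reads with SR59230A and 1, 0, 1 and 2 with vehicle, and 4 of these 5 reads lay on a retained-intron model. Neither a presence nor a difference of its spliced transcript could be measured at this depth.

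The NK receptors were Ncr1 (the activating receptor NKp46), Klrb1c (NK1.1), Klrd1 (CD94) and Klrk1 (NKG2D). They summed to 5, 26, 5 and 4 reads in SR59230A tumors 1 to 4, against 6, 9, 5 and 31 reads in vehicle tumors 0 to 3. SR59230A tumor 2 and vehicle tumor 3 thus held most of the NK receptor reads of their groups. Klrk1 had 12 and 11 reads in these tumors and 1 to 3 elsewhere, and Ncr1 had 5 and 9 reads in them and 0 to 2 elsewhere. Klrb1c had 6.6 and 8.1 reads in them and 0 to 2.3 elsewhere, whereas Klrd1 had 1 to 3 reads in every tumor of both groups. Of the 11 Klrk1 reads in vehicle tumor 3, 5 lay on the retained-intron model Klrk1-206 and 1 on Klrk1-204, also a retained-intron model.
Tbx21 (T-bet), a transcription factor of NK cells and T helper 1 cells, had 2, 7, 2 and 6 reads with SR59230A and 3, 5, 2 and 7 with vehicle. Eomes, a related factor of NK and cytotoxic T cells, had 3, 2, 0 and 1 reads with SR59230A and 13.1, 2, 1 and 24.5 with vehicle. Its vehicle reads came almost wholly from the satellite-rich tumors 0 and 3, and Tbx21 did not share that pattern in vehicle tumor 0. Without the filter, Eomes had a log2 fold change of -2.93 (SE 1.07, edgeR adjusted p = 0.766).

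Without a filter on low counts all 36 members could be fitted, with 27 log2 fold changes below 0 and 9 above 0 and a median of -0.28, beside 55% below 0 and a median of -0.04 over 27585 genes. Cd3d and Eomes were the only members with an unadjusted p under 0.05, 2 of 36 beside 4.12% of all genes, and no gene was a DEG. By role, 6 of 7 receptor chains, 6 of 8 co-receptor and signalling genes, 2 of 5 Treg genes, 3 of 4 inhibitory receptors, 3 of 5 granule genes, 4 of 4 NK receptors and 3 of 3 effector genes were below 0. The ratio of summed CPM, SR59230A over vehicle, was 0.692 for granule genes, 0.613 for NK receptors and 0.319 for effector genes, and without vehicle tumor 3 it was 1.27 for granule genes, 1.44 for NK receptors and 0.589 for effector genes. The direction of the first 2 sums thus rested on vehicle tumor 3. Of the 36 members, 20 had their highest level in vehicle tumor 3, and 16 of these were among the 25 untested genes. How many of all genes were highest in that tumor was not counted, so this is not shown to be particular to the members. Vehicle tumor 3 also had the highest Ptprc (19.1 CPM), the highest Igkc (88 reads, against 0 to 10 in the other 7 tumors) and the highest Jchain (63 reads, against 3 to 23). Igkc and Jchain mark antibody-secreting cells. Olfactory receptor transcripts were also highest in vehicle tumor 3, at 0.383% of reads against 0.106% to 0.322% in the other tumors. Of its member reads, 11.8% lay on retained-intron models, against 4.27% to 11.4% in the other tumors. The part of these leukocyte, olfactory and retained-intron reads in the result was not tested.

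Summed over all 36 members, the level was 14.1, 14.7, 18.9 and 17.5 CPM in SR59230A tumors 1 to 4, against 21.5, 17.9, 13.97 and 27.0 CPM in vehicle tumors 0 to 3. The mean was 16.3 ± 2.29 CPM with SR59230A and 20.1 ± 5.55 CPM with vehicle (SD, n = 4 each), a ratio of 0.812. Vehicle tumor 2 was the lowest of all 8 tumors, so the groups overlapped, and the difference was smaller than the spread between vehicle tumors. The ratio was 0.918 without vehicle tumor 3 and 1.00 without the 3 satellite-rich libraries.
Without Lck, the remaining 35 members summed to 8.65, 7.18, 12.8 and 8.66 CPM with SR59230A and 13.3, 8.92, 6.16 and 20.7 CPM with vehicle. The ratio of means was 0.762, and 0.988 without vehicle tumor 3. For the 25 untested members the sums were 1.34, 1.89, 1.51 and 1.37 CPM with SR59230A and 2.80, 1.23, 1.03 and 6.24 CPM with vehicle, a ratio of 0.541, and 0.906 without vehicle tumor 3.

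**Figure D5:**
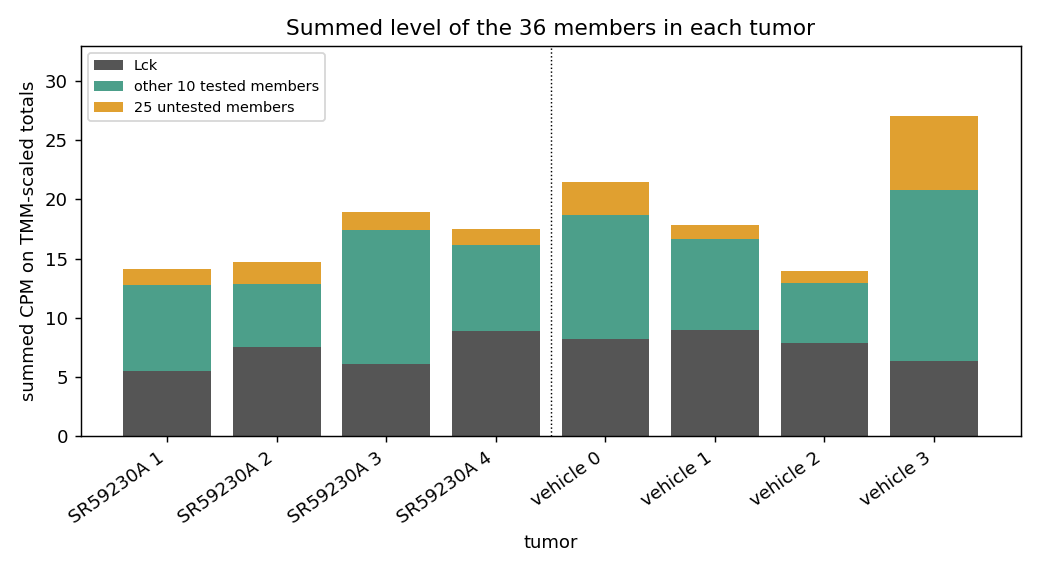
Summed CPM of the 36 members in each tumor (bars, SR59230A tumors on the left), stacked as Lck, the other 10 tested members and the 25 untested members. SR59230A tumors lie between 14.1 and 18.9 CPM, within the vehicle range of 13.97 to 27.0 CPM.

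Another 40 genes listed for T and NK cells were examined, though the cells that made them cannot be read from bulk RNA. Of these 15 were tested, 7 with a log2 fold change above 0 and 8 below 0, with a median of -0.05, 0 at an unadjusted p under 0.05 and 0 DEGs. Slamf1, a receptor of activated lymphocytes and macrophages, was at 83.6 ± 41.4 CPM with SR59230A and 52.5 ± 12.4 CPM with vehicle (SD, n = 4 each), a log2 fold change of 0.67 (SE 0.31, edgeR adjusted p = 0.996). Tnfrsf9 (4-1BB) had a log2 fold change of -0.39 (SE 0.20) and Tnfrsf4 (OX40), both costimulatory receptors, of 0.64 (SE 0.36). On the TPM scale the mean level of Slamf1 was 23.8, against 0.0589 for Cd3e.

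The ligands of the member receptors were better covered, with 13 of 16 tested. Of these, 8 had a log2 fold change above 0 and 5 below 0, the median was 0.07, and 0 had an unadjusted p under 0.05. The smallest p-values were those of Fgl1, a ligand of Lag3 (log2 fold change 0.84, SE 0.44), Icosl, the ligand of Icos (0.28, SE 0.16), and Lgals9, a ligand of Havcr2 (0.29, SE 0.20). Il2, the growth factor bound by Il2ra, had 0 reads in all 8 tumors.
All 14 genes of the interferon gamma pathway were tested. Of these, 8 were above 0 and 6 below 0, with a median of 0.02 and 0 at an unadjusted p under 0.05. Cxcl9, a chemokine induced by interferon gamma that attracts T cells, had 0.382, 0.425, 0.389 and 0.309 CPM in SR59230A tumors 1 to 4, against 0.589, 0.451, 0.181 and 2.49 CPM in vehicle tumors 0 to 3. Vehicle tumor 3 was the highest for Cxcl9, and the log2 fold change was -1.27 (SE 0.71, edgeR adjusted p = 0.996). Cxcl10, a second such chemokine, had a log2 fold change of 0.53 (SE 0.54) and the GTPase gene Gbp2 of 0.41 (SE 0.42).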

How the data were processed

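Total RNA from 8 whole tumors was sequenced as read pairs of 76 bases from stranded libraries. The authors quantified the reads with Salmon; the build is GRCm38 in their methods but GRCm39 in the processing notes of the submitters. For each transcript, the deposited files give an estimated count, a TPM value and an effective length. A further deposited table holds DESeq2 normalized counts, a signal scaled between libraries, and was used only as an alternative. Of 116747 transcripts, 115685 (99.09%) matched GENCODE identifiers of GRCm38 and were summed to 35419 symbols, retained-intron models included, and rounded. Salmon shares reads between similar transcripts, so sums of near-identical genes are estimates. Groups came from the labels.

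Counts were scaled by TMM and filtered (at least about 10 reads in 4 tumors and 15 in total), and groups were compared with edgeR 4.0.16 in R 4.3.3 by the quasi-likelihood test with Benjamini-Hochberg adjustment over all 15193 genes. CPM used TMM-scaled totals. Exact permutation used log2(CPM + 0.1). Alternatives used DESeq2 1.42.0 and limma 3.58.1. The edgeR script was tested on simulated data. All 36 members were named, as were the 3 tested genes with the smallest p from each of the lists of other T and NK genes, ligands and interferon gamma response genes, and Ptprc and defining markers of other cell types with their list sums. Igkc, Jchain, Gm10800, Il2, the variable segments of the receptor genes and the olfactory receptors were picked after their values were seen. Members and lists were chosen with earlier results of these data known.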

Additional observations from a re-analysis of the deposited data

Results flagged for a closer look

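In 40 groups of 4 tumors (11 tested members and 9 sums, each with SR59230A and with vehicle), a single tumor that lay far from the other 3 relative to the range was found 2 times, both in vehicle tumor 3. Chance gives about 1 in 20 groups. Cd8a was at 1.03 CPM in vehicle tumor 3, and the nearest vehicle tumor was at 0.295 CPM. The 4 NK receptors summed to 1.19 CPM in vehicle tumor 3, and the nearest vehicle tumor was at 0.221 CPM.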

How the results depend on the processing

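No member was a DEG under any of the alternatives. Members with an unadjusted p under 0.05 were Trac and Cd4 with length offsets, Trac by limma on log2(TPM + 1), Cd4 with the tumor set as a block and without the muscle-rich tumors, Cd3d, Il2ra and Eomes in the 4 tumors other than tumors 1 and 2 of each group, Lag3 without SR59230A tumor 3, and Cd3d and Eomes without a filter. Without a filter 4.12% of all genes had such a p, and for the other alternatives in this list that share was not counted. Over all genes there were 0 DEGs in the main comparison, 17 by DESeq2, 5 in the other 4 tumors only, and 0 to 1 when each tumor was left out in turn. Tumors 1 to 3 of each group gave 2 DEGs with the replicate number as a block and 1 without it. Same-numbered tumors were not taken as pairs. Their deviations correlated at 0.01, 0.64 and 0.54 for tumors 1, 2 and 3, and vehicle tumor 1 correlated at 0.64 with SR59230A tumor 2. With the replicate block the median of the tested members was -0.28, without it -0.25.

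The median log2 fold change ran from -0.53 (without SR59230A tumor 3) to -0.18 when each tumor was left out, with -0.46 and -0.38 without vehicle tumors 1 and 2, and was 0.29 without the 3 satellite-rich libraries (SR59230A tumor 4 and vehicle tumors 0 and 3). It was -0.06 and -0.02 by limma on log2(TPM + 0.1) and log2(TPM + 1). The ratio of summed CPM ran from 0.737 to 0.918 on leaving out each tumor.

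Several members changed sign, none of them past the threshold, and the cause was not tested. Ikzf2 was 0.0082 without a filter, 0.28 with length offsets, 0.22 and 0.11 by limma on log2(TPM + 0.1) and log2(TPM + 1), 0.078 with coding transcripts only, 0.069 with the replicate block, 0.053 in tumors 1 to 3 without it (chosen after seeing the data), 0.0095 in the other 4 tumors, 0.41 without the satellite-rich libraries and 0.33 without the muscle-rich tumors. Havcr2 was 0.017 and 0.010 by limma on TPM with those pseudocounts, 0.039 with the block, 0.64 in tumors 1 and 2 and 0.52 without the satellite-rich libraries. Tigit was 0.10 and 0.043 by limma on TPM, 0.17 with the replicate block, 0.044 with the tumor set as a block, 0.47 in tumors 1 and 2, 1.22 without the satellite-rich libraries, 0.41 without the muscle-rich tumors and 0.060 on the deposited normalized counts. Il2ra was 0.22 in tumors 1 and 2 and 0.69 without the satellite-rich libraries. Lat was 0.016 in tumors 1 to 3 without block and 0.00064 without the satellite-rich libraries. Cd8a was 0.29 without the satellite-rich and 0.11 without the muscle-rich tumors. In the other 4 tumors Cd8b1 was -0.029 and Lck 0.025.

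On leaving out each tumor, Cd8a ran from -0.59 to 0.40, Cd8b1 from -0.48 to 0.53, Ikzf2 from -0.29 to 0.20, Havcr2 from -0.32 to 0.30 and Tigit from -0.55 to 0.43. The stricter filter left 3 members, the deposited normalized counts kept 5, and coding transcripts kept 9, without Cd4 and Lat. The depth of 0 to 12 reads per tumor for 23 members limits any statement on them.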
